A study of Gallus gallus with 10 samples.

Results

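The ectopic, induced optic tectum (iTeO) was compared with the natural optic tectum (TeO) of the chicken embryo over 7 of the 10 libraries of the series. These were the 4 iTeO and the 3 TeO libraries, taken by their labels, and the values are counts of RNA-seq reads on chicken genes. The iTeO had formed in wild-type chicken embryos in which a piece of the anterior diencephalon was replaced at an early stage by human neuroepithelial cells (NECs). In 2 libraries, named iTeO (ES), the NECs were made from human embryonic stem cells, for which the study used 1 line (RH6), and in 2, named iTeO (iPS), from human induced pluripotent stem cells of the line hiPSC4. TeO came from wild-type chicken embryos and carries no treatment in the labels. The remaining 3 libraries came from the natural chicken cerebral cortex (NCC) and entered the filter on low counts and the estimate of the spread between replicates, and served as a reference for the human counts. The study's methods give a default day after grafting for the dissection of chimeric embryos, while the labels give no age for these libraries. They also do not give whether a library holds tissue of 1 embryo or of several, and do not say that replicates come from separate embryos, so that the p-values measure the spread between these samples, which may be partly technical.

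The optic tectum is the roof of the avian midbrain. It is a layered structure that receives the axons of retinal ganglion cells, and it is patterned by the isthmic organizer, a signaling center at the boundary of midbrain and hindbrain that acts through secreted factors such as FGF8. The comparison of iTeO with TeO asks how far a tectum raised outside the midbrain differs in gene expression from the one that forms in its normal place. In such bulk tissue, fewer cells of a type and less RNA per cell cannot be told apart. The files identify genes by Ensembl numbers alone, and 0 of these could be paired with a gene name by the table used here. The labelled tissues could therefore not be checked against marker genes, and the genes are described by their behavior across the libraries.

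Between 7809002 and 10527402 counts lay on chicken genes in the iTeO libraries, and between 10893074 and 11591361 in the TeO libraries. A count of 3 in a library corresponds to between 0.259 and 0.384 CPM, the counts in 1000000, so that levels below this were not detectable at this depth, counting error alone considered. Several libraries stood apart. The first replicates of iTeO (ES) and iTeO (iPS) had 0.371% and 0.299% of their counts on human genes, while the second replicates had 0.129% and 0.124% and the TeO and NCC libraries between 0.123% and 0.137%. The most counted chicken gene held 14.3% ± 1.06 (SD, n = 4) of the chicken counts in iTeO and 21.1% ± 1.14 (SD, n = 3) in TeO, without overlap (exact permutation test of the absolute difference over 35 splits, p = 0.0286, the smallest this design allows). Finally, 21 genes, chosen in TeO alone, were as a set on in both iTeO (ES) libraries and in TeO replicates 2 and 3, with summed levels between 405 and 484 CPM. They were off in both iTeO (iPS) libraries and TeO replicate 1, with sums between 2.18 and 3.19 CPM. The states on and off were set by the mean over the 21 genes, not gene by gene. Between the kinds of iTeO, this split and the origin of the NECs cannot be told apart.

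The quasi-likelihood test of edgeR was applied to 13999 chicken genes, and a call needed both a p-value below 0.05 after Benjamini-Hochberg adjustment and a log2 fold change beyond 1 in either direction. By this rule 950 genes were called, which is 6.79% of the genes tested. In 565 of these (4.04%) the higher level was in iTeO, and in 385 (2.75%) it was in TeO. Most of the significant differences were small. Without the limit on fold change, 5104 genes passed the adjusted threshold of 0.05 (36.5%), and they divided evenly, with iTeO higher in 2523 and TeO in 2581, and 4154 of them, or 81.4%, differed by a log2 fold change of 1 or less. The genes called had a median log2 fold change of 1.38 when higher in iTeO and of -1.33 when higher in TeO. The directions parted among the larger changes. Between a log2 fold change of 1 and 1.5 iTeO was higher in 331 genes and TeO in 256, whereas above 2 there were 111 and 36, so that 75.5% of these 147 genes (1.05% of the genes tested) were higher in iTeO. The filter on low counts bears on this excess, since a gene can pass it through the tissue where it is higher. The cause of the excess was not tested. Beyond a log2 fold change of 1, iTeO was higher in 623 genes and TeO in 437 without a filter. With at least 10 counts in every library these numbers were 339 and 238. Above a log2 fold change of 2, these settings called 254 and 40 genes, whose directions are not given here. Some genes depended on iTeO or on TeO, in that they would fail the filter without the libraries of that tissue. Leaving these genes out was chosen after seeing the data, and itself selects by the difference between the tissues. After this step 772 of the 950 genes remained (423 with iTeO higher and 349 with TeO higher). Above a log2 fold change of 2 there were 47 and 30, or 61.0% with iTeO higher.

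The balance of directions rested on the scaling. The TMM factors used here were between 1.07 and 1.10 in iTeO and between 0.934 and 0.978 in TeO, and left a median log2 fold change of 0.01 over all tested genes. With library sizes alone, this median moved to 0.21, and 868 genes were called with iTeO higher and 232 with TeO higher, that is 78.9% higher in iTeO against 59.5% with TMM. Both scalings called 797 genes in common, 0 of them with opposite signs.

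**Figure D1:**
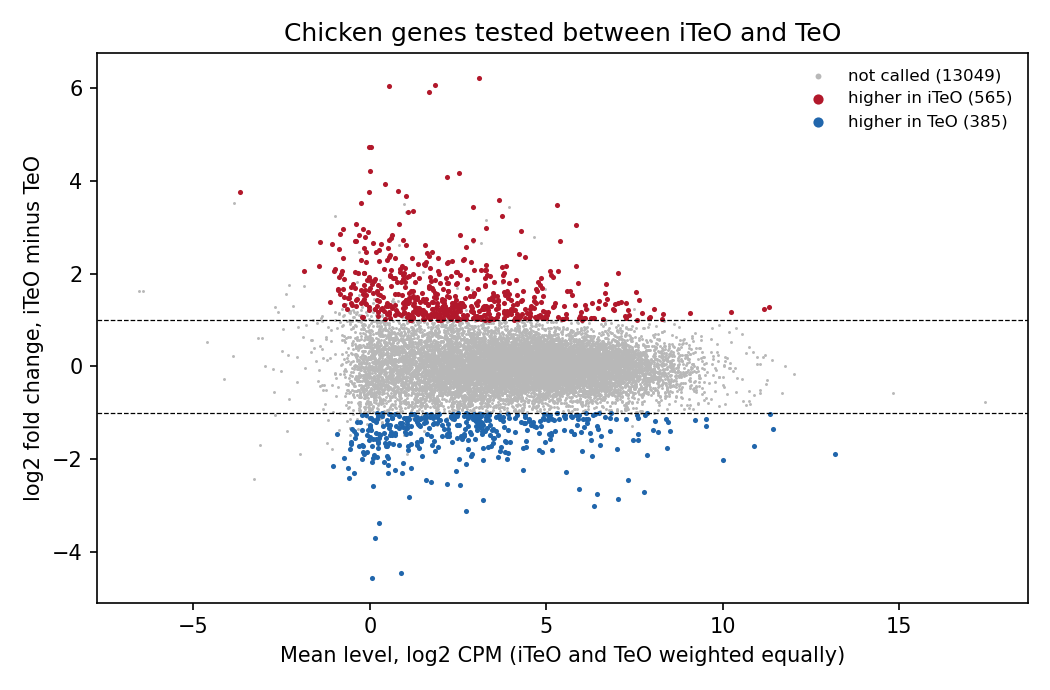
Log2 fold change of iTeO over TeO (y axis) against the mean level in log2 CPM (x axis) for 13999 chicken genes, with dashed lines at log2 fold changes of 1 and -1. The 565 genes called higher in iTeO (red) and the 385 called higher in TeO (blue) lie mostly at low to middle levels, and the largest changes are those of genes higher in iTeO.

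Called genes were mostly genes with few counts. The level of a gene was taken as the mean of its iTeO and TeO means in CPM, which is a scale of counts and does not correct for gene length. The median level was 17.5 CPM over all tested genes, 4.38 CPM over those called higher in iTeO and 6.41 CPM over those called higher in TeO. Of 589 genes below 1 CPM, 16.6% were called, 11.7% with iTeO as the higher tissue and 4.92% with TeO. Of the 589 genes, 341 depended on iTeO or on TeO to pass the filter, which favors a difference between the tissues. Leaving these genes out itself selects by that difference, and the cause of the higher share was not tested. Of the remaining 248 genes, 9.27% were called, 10 with iTeO higher and 13 with TeO higher. The share called was 11.3% of 4756 genes between 1 and 10 CPM, and 9.69% without genes that depended on iTeO or on TeO. It was 3.74% of 6763 genes between 10 and 100 CPM and 3.23% of 1891 genes at 100 CPM or above. The share was therefore lower above 10 CPM than below, also without those genes, and at 100 CPM or above iTeO was higher in 28 genes and TeO in 33.

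The opposite order held when the size of the change was set aside. Whatever the fold change, the adjusted p-value was under 0.05 for 17.1% of the genes below 1 CPM and for 55.2% of those at 100 CPM or above. The median standard error of the log2 fold change was 0.49 in the lowest class and 0.07 in the highest, and the median absolute log2 fold change of all tested genes was 0.58 and 0.25. Among highly counted genes the differences between iTeO and TeO were thus frequent and modest. When genes were sorted by the TeO mean alone, which favors genes higher in iTeO in the lowest class, 23.1% of the genes below 1 CPM were called.

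**Figure D2:**
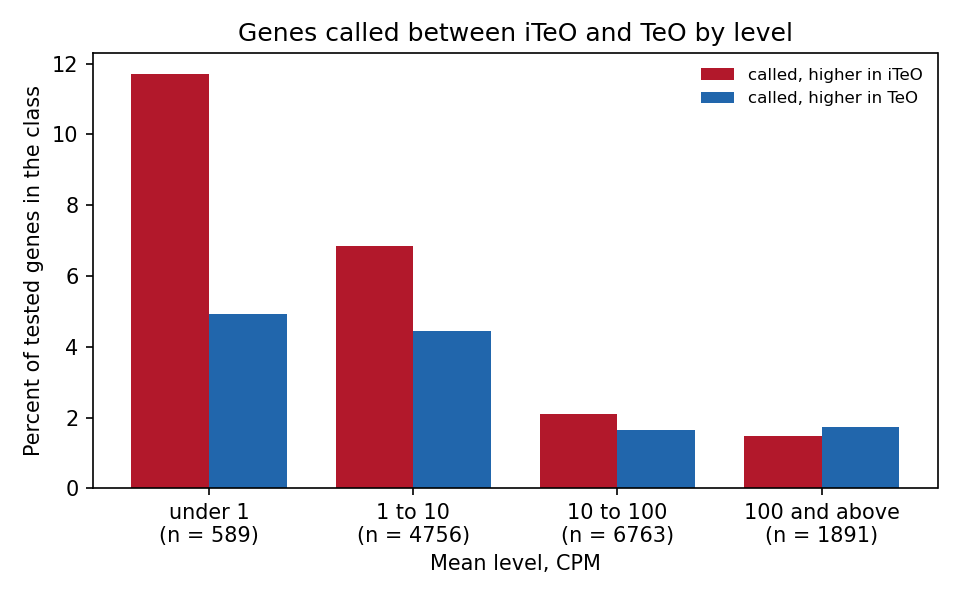
Percent of tested genes called higher in iTeO (red bars) or higher in TeO (blue bars) in 4 classes of mean CPM (x axis, with the number of tested genes). The red bars fall from 11.7% below 1 CPM to 1.48% at 100 CPM or above, and the blue bars from 4.92% to 1.75%. Of the 589 genes in the lowest class, 341 would fail the filter on low counts without the iTeO or without the TeO libraries.

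Differences in detection, as opposed to level, were few. A gene was taken as detected in a library at 1 CPM of the chicken counts. The CPM values of detection used library sizes alone, without the TMM factors. On that scale the median log2 fold change of all tested genes was 0.21, which favors detection in iTeO. Of 24881 chicken genes, 12356 were detected in all 7 libraries and 10484 in none. Only 104 genes were detected in all 4 iTeO and no TeO library, and 35 in all 3 TeO and no iTeO library. These groups were chosen by their values, so that their calls are a description. Of the 104 genes, 78 were called higher in iTeO, and of the 35 genes, 31 were called higher in TeO. They were weakly expressed. The 104 genes had a median of 1.89 CPM in iTeO and of 0.563 CPM in TeO, and the highest reached 11.9 CPM in iTeO. The 35 genes had a median of 1.72 CPM in TeO and of 0.572 CPM in iTeO, and the highest reached 3.35 CPM in TeO. At least 1 count in every library of the tissue where they were not detected was present for 100 of the 104 genes and for 30 of the 35.

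A full switch between the tissues was rarer still. There were 911 genes with no count in any TeO library and at least 1 in iTeO, and 642 genes with the reverse pattern, and the median sum over the libraries of the other tissue was 1 count in both. No gene had 0 counts in one tissue and 10 or more in every library of the other. The highest sums were 92 counts in iTeO for a gene without a TeO count and 138 counts in TeO for the reverse. Of the genes without a TeO count, 4 were tested and 1 was called, and of those without an iTeO count 0 were tested. Of the called genes, 356 of the 565 higher in iTeO (63.0%) and 256 of the 385 higher in TeO (66.5%) were detected in all 7 libraries, against 88.3% of all tested genes. The filter on low counts bears on this. Without the iTeO libraries, 142 of the 565 genes would not have passed the filter, and without the TeO libraries 36 of the 385. Such dependence on a tissue favors a difference between the tissues. It does not force a call, since 608 of the tested genes depended on iTeO or on TeO to pass.

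Taken one kind at a time, iTeO (ES) differed from TeO by 1010 genes (7.21% of those tested), with iTeO higher in 613 (4.38%) and TeO in 397 (2.84%), and iTeO (iPS) by 820 genes (5.86%), with iTeO higher in 448 (3.20%) and TeO in 372 (2.66%) (quasi-likelihood test of edgeR, 4 groups). Above a log2 fold change of 2 there were 187 genes for iTeO (ES), 134 of them higher in iTeO, and 142 for iTeO (iPS), 89 of them higher in iTeO, while the number higher in TeO was 53 for both. Both comparisons use the same 3 TeO libraries, so that likeness between them is partly built in. The genes called between all iTeO and TeO libraries were chosen with both kinds, so that their calls and medians in each kind are also partly built in. Of the 565 genes called higher in iTeO, 483 were called in iTeO (ES) and 399 in iTeO (iPS), with median log2 fold changes of 1.48 and 1.32. Of the 385 genes called higher in TeO, 296 were called in iTeO (ES) and 286 in iTeO (iPS), with medians of -1.35 and -1.32. Both kinds alone called 338 and 227 of them, 565 genes in all. In neither kind were 21 of the genes higher in iTeO and 30 of those higher in TeO called. Conversely, 231 genes called in iTeO (ES) and 135 called in iTeO (iPS) were not called with all iTeO libraries together.

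The split of the libraries gave a comparison in which the kinds share no TeO library. Both contrasts came from 1 fit and share the estimated spread of each gene, so that an overlap of calls is still partly built in. Each kind was set against the TeO libraries in which the 21 genes were in the same state, iTeO (ES) against TeO replicates 2 and 3, and iTeO (iPS) against TeO replicate 1, which is assumed to vary like the other groups. The first called 909 genes (6.49%) and the second 590 (4.21%), and 382 genes were called in both, which is 42.0% of the first list and 64.7% of the second. All 382 changed in the same direction, 221 higher in iTeO and 161 lower. The genes called higher in iTeO (ES) had a median log2 fold change of 1.47 there and of 1.25 in the separate comparison of iTeO (iPS), and those called lower had -1.34 and -1.06. Among genes called in iTeO (iPS), the medians were 1.52 there and 1.28 in iTeO (ES) when higher, and -1.36 and -1.17 when lower. Over all 13999 genes, 78.7% had the same sign in both and Pearson's r was 0.684, a description across genes, which are not independent replicates and share the scaling of the libraries.

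**Figure D3:**
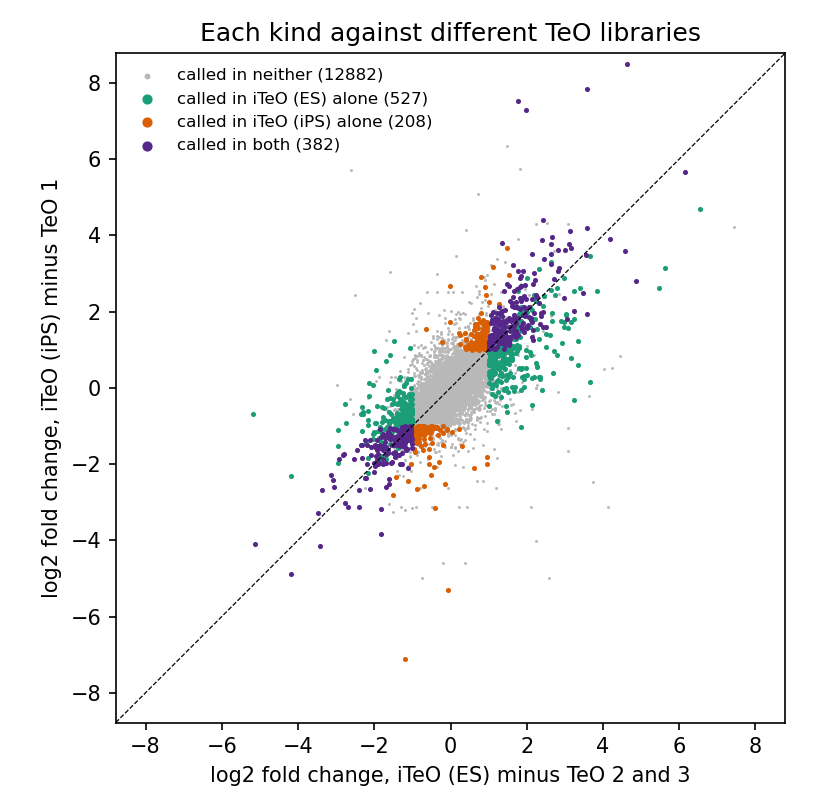
Log2 fold change of iTeO (iPS) over TeO replicate 1 (y axis) against that of iTeO (ES) over TeO replicates 2 and 3 (x axis), 1 point per tested chicken gene, with the dashed line marking equal values. The 382 genes called in both comparisons (purple) lie in the quadrants of equal sign.

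Few genes passed a direct test between the kinds of iTeO. Between iTeO (ES) and iTeO (iPS), 2 genes were called (0.0143% of those tested), and 1285 genes had an unadjusted p-value under 0.05, or 9.18%. The number was not stable, with 36 genes by DESeq2, 64 without iTeO (ES) replicate 1, 96 without iTeO (ES) replicate 2, 0 without iTeO (iPS) replicate 2 and 1 without any single TeO library. Among the 950 genes called between iTeO and TeO, 0 were called between the kinds by the quasi-likelihood test of edgeR and 4 by DESeq2, and 138, or 14.5%, had an unadjusted p-value under 0.05. The median absolute difference between the kinds was 0.29 on the log2 scale over the 950 genes and 0.14 over all tested genes, and the kinds lay more than a log2 fold change of 1 apart in 61 of the 950 genes (6.42%) and in 3.23% of all tested genes. Neither of the 2 genes called between the kinds was among the 21 split genes, though those were on in iTeO (ES) and off in iTeO (iPS). The test took its spread from all groups, and the split genes also differed among the TeO replicates. The number called between the kinds therefore does not cover the split genes. Neither of the 2 called genes was called between iTeO and TeO. The 2 genes are named here after their values were seen. The iTeO (ES) libraries had 77.4 and 86.9 CPM of ENSGALG00000015286, the iTeO (iPS) libraries 39.4 and 38.6 CPM and the TeO libraries 46.3 to 56.5 CPM, so that the TeO libraries lay between the kinds. Its log2 fold change against TeO was 0.64 (standard error 0.10) in iTeO (ES) and -0.43 (standard error 0.10) in iTeO (iPS), with adjusted p-values of 0.000377 and 0.00803 from edgeR. For ENSGALG00000003932 the iTeO (ES) libraries had 21.8 and 21.0 CPM, the iTeO (iPS) libraries 8.85 and 10.5 CPM and the TeO libraries 17.9 to 20.7 CPM. In this gene iTeO (iPS) stood apart, at -0.97 on the log2 scale against TeO (standard error 0.15, adjusted p = 0.000389 from edgeR), against 0.17 (standard error 0.13, adjusted p = 0.364) for iTeO (ES).

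In single libraries the called genes behaved alike. In 892 of the 950 genes the 4 iTeO libraries lay wholly on one side of the 3 TeO libraries, above them in 527 and below them in 365. The same held for 41.4% of all tested genes, 20.1% above and 21.3% below. The genes were called from these same libraries. Over the 565 genes higher in iTeO, the median of log2 CPM above the TeO mean was 1.49 in the first and 1.37 in the second iTeO (ES) replicate, and 1.26 in both iTeO (iPS) replicates. Over the 385 genes higher in TeO, the iTeO (ES) libraries were at -1.20 and -1.41 and the iTeO (iPS) libraries at -1.30 and -1.27. A single TeO library set against the other TeO libraries had medians between -0.08 and 0.08. Each iTeO library lay above all TeO libraries in 552 to 561 of the 565 genes, and below all TeO libraries in 376 to 382 of the 385.

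**Figure D4:**
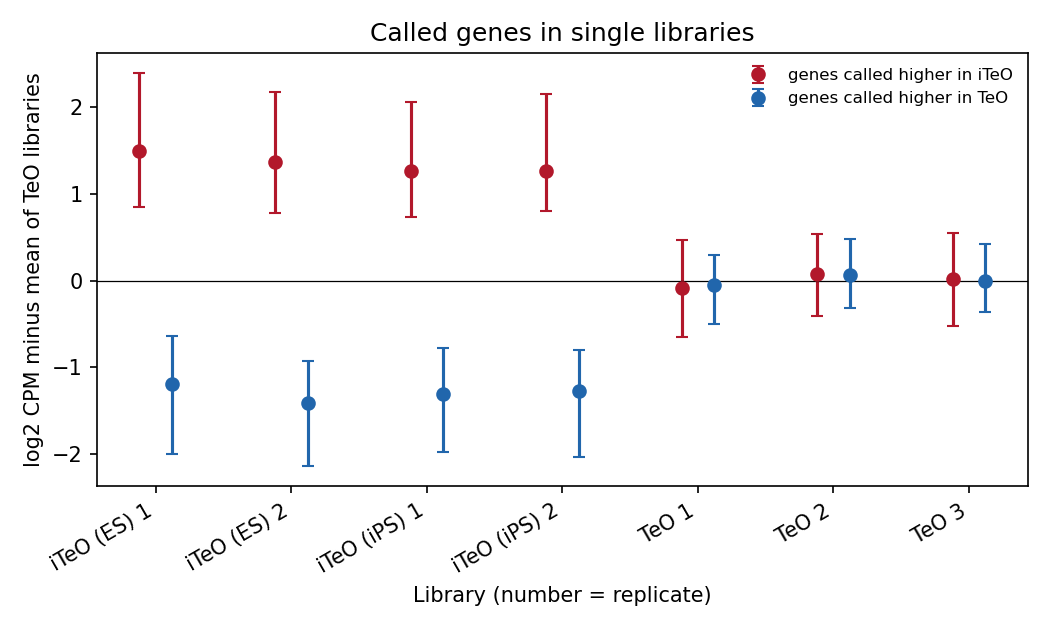
Difference in log2 CPM from the mean of the TeO libraries (for a TeO library, from the mean of the other TeO libraries) in each library, as the median (points) and the 10th to 90th percentile (bars) over the 565 genes called higher in iTeO (red) and the 385 called higher in TeO (blue). All 4 iTeO libraries lie between 1.26 and 1.49 for the red and between -1.41 and -1.20 for the blue medians.

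The called genes took different shares of the reads in the 2 tissues. The genes were called from these same libraries, so that the direction is built in and the shares are a description. They are shares of all chicken counts, without TMM scaling, and the total includes the most counted gene. The 565 genes higher in iTeO held between 2.31% and 2.63% of the chicken counts in the iTeO libraries and between 0.821% and 0.941% in TeO. The 385 genes higher in TeO held more of the TeO counts, between 4.08% and 4.35%, and between 1.37% and 1.98% in iTeO. Of the TeO counts, ENSGALG00000013640 alone held between 1.33% and 1.51%. Without it, the genes higher in TeO held between 2.75% and 2.84% of the TeO counts and between 1.09% and 1.32% of the iTeO counts.

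The spread between replicates was larger in iTeO (ES) than in iTeO (iPS), each judged from 1 pair of libraries. Over all tested genes the median SD of log2 CPM was 0.195 in iTeO (n = 4) and 0.127 in TeO (n = 3), and within the kinds of iTeO, pooled over both, it was 0.182. For the genes called higher in iTeO these values were 0.351 in iTeO and 0.260 in TeO, and for those called higher in TeO 0.350 and 0.179. Between the 2 replicates of a kind, the median SD over all tested genes was 0.163 in iTeO (ES) and 0.130 in iTeO (iPS). For genes called higher in iTeO it was 0.311 and 0.215, and for those called higher in TeO 0.292 and 0.246. A chi-square per degree of freedom between the counts of 2 replicates was 17.3 for iTeO (ES), 8.04 for iTeO (iPS) and between 4.90 and 6.83 for TeO. The difference in spread was not tested, medians of SDs over 2 and 3 libraries are not strictly comparable, and the iTeO libraries also had fewer counts than TeO. The chi-square can also grow with the number of counts, and the iTeO (ES) libraries had more counts than the iTeO (iPS) libraries. A single iTeO library held more than 50% of the summed iTeO CPM in 14 of the genes called higher in iTeO (2.48%), in 15 of those called higher in TeO (3.90%) and in 221 of all tested genes (1.58%). This was iTeO (ES) replicate 1 in 8 of the 14, in 10 of the 15 and in 118 of the 221.

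With each of the 7 libraries left out in turn, 574 of the 950 genes, or 60.4%, were called in every fit, 332 with iTeO higher and 242 with TeO higher, and 0 genes changed sign. The 376 genes that were lost in at least 1 fit had smaller changes and lower levels at the median. Their median absolute log2 fold change was 1.15, against 1.51 in the genes called in every fit, with 306 of them at 1.5 or less, and their median level was 2.66 CPM, against 7.32 CPM. Genes close to the limit of 1 are lost most easily, so that the smaller changes are partly built in. The filter on low counts was also applied anew in each fit, and 34 of the called genes failed it in a fit. At any fold change, 729 of the 950 genes kept an adjusted p-value under 0.05 in every fit. Leaving out an iTeO library lost between 110 and 165 genes, and leaving out a TeO library between 170 and 182. TeO had fewer libraries than iTeO, so that these losses are not strictly comparable. Of the 147 genes above a log2 fold change of 2, 75 stayed above it and called in every fit, or 51.0%.

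The largest differences in counted level were followed gene by gene in the 565 genes that were called, called in each kind alone and without overlap, of which the 2 with the largest difference of mean CPM in each direction were named. What these genes encode is not given in the files. ENSGALG00000040493 reached 2795 and 3990 CPM in the iTeO (ES) libraries, 3757 and 3879 CPM in iTeO (iPS), and 1490, 1476 and 1503 CPM in TeO. All 4 iTeO libraries were above all TeO libraries, which were nearly equal. Its level was 2.42-fold higher in iTeO, or 1.27 on the log2 scale (standard error 0.10, adjusted p = 3.1e-06 from edgeR). ENSGALG00000038366 reached 2655 and 3798 CPM in the iTeO (ES) libraries, 2992 and 3416 CPM in iTeO (iPS), and 988, 1369 and 1743 CPM in TeO. Here the TeO libraries spread widely, and the fold change of 2.35 (log2 fold change 1.23, standard error 0.24, adjusted p = 0.00486 from edgeR) was less certain.

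Among the 4 named genes, the decreases were larger in counts. The most counted chicken gene, at 14.3% of the chicken counts in iTeO and 21.1% in TeO, was not among the called genes. ENSGALG00000013640 had 14243, 16103 and 13860 CPM in TeO, against 3267 and 2587 CPM in the iTeO (ES) libraries and 4052 and 5949 CPM in iTeO (iPS). The tissues did not overlap, and the level was 3.72-fold higher in TeO (log2 fold change of iTeO over TeO -1.89, standard error 0.29, adjusted p = 0.00168 from edgeR). Both iTeO (ES) libraries lay below both iTeO (iPS) libraries, with log2 fold changes against TeO of -2.33 and -1.56, but the difference between the kinds, -0.77 (standard error 0.26), did not pass the test (adjusted p = 0.469 from edgeR). ENSGALG00000032079 was at 1685 and 1503 CPM in the iTeO (ES) libraries, 1678 and 1303 CPM in iTeO (iPS), and 4263, 4199 and 3383 CPM in TeO. It was 2.56-fold higher in TeO (log2 fold change -1.36, standard error 0.11, adjusted p = 6.34e-06 from edgeR), with the kinds of iTeO at -1.31 and -1.41.

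**Figure D5:**
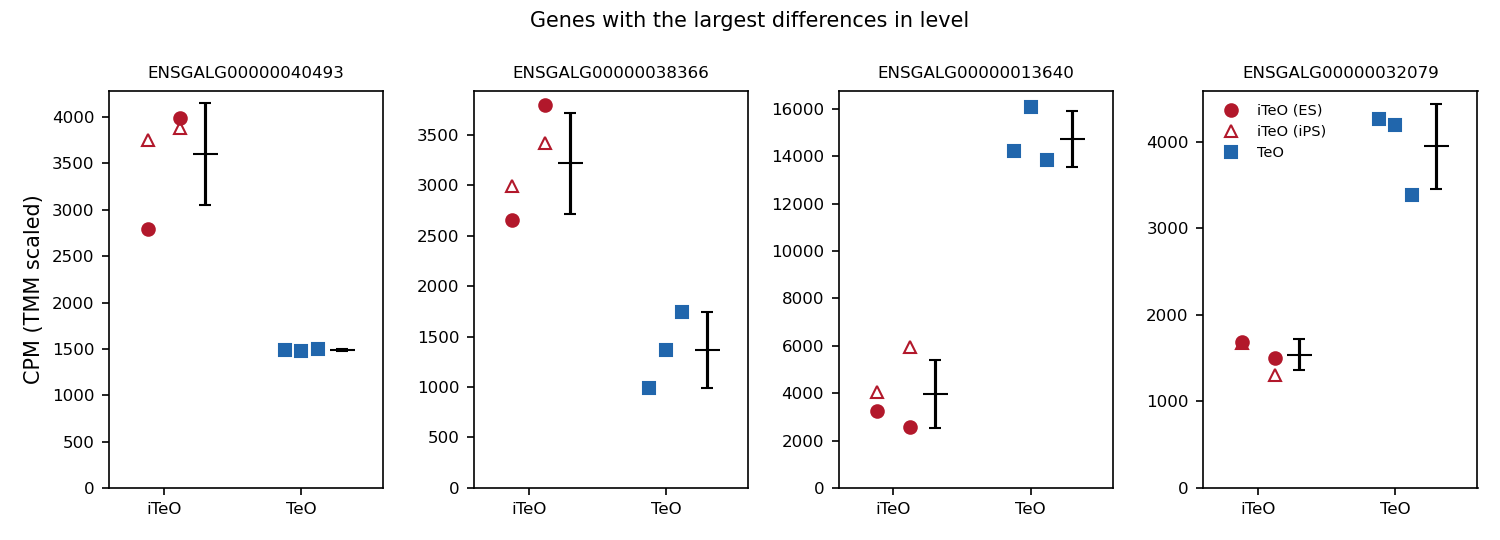
CPM after TMM scaling (y axes, starting at 0) of the 4 named genes in the iTeO (ES) libraries (filled circles), the iTeO (iPS) libraries (open triangles) and the TeO libraries (squares), with mean and SD in black (n = 4 and n = 3). In each gene the iTeO and TeO libraries do not overlap, and ENSGALG00000013640 falls from between 13860 and 16103 CPM in TeO to between 2587 and 5949 CPM in iTeO.

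All 4 genes were called in 19 of 20 alternatives, which include the 7 fits that left out a library. The exception was the test against a log2 fold change of 1, which none of the 4 passed. Among iTeO libraries, ENSGALG00000013640 varied most, with 3964 ± 1453 CPM (SD, n = 4), against 14735 ± 1199 CPM in TeO (SD, n = 3).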

How the data were processed

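The deposited values are raw counts per gene. Per the labels and the methods of the study, the authors prepared libraries with a stranded total RNA kit, trimmed single-end reads with Trimmomatic, aligned them with STAR 2.7.1a to a joined human (GRCh38) and chicken (galGal5) genome and counted unique reads with featureCounts, without reads that matched both genomes equally. The strand setting is not given in the sources used here, so that overlapping and antisense genes are uncertain.

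Tests on chicken counts used edgeR 4.0.16 (R 4.3.3), with TMM scaling, a filter (filterByExpr by tissue, about 0.910 CPM in at least 3 libraries), robust quasi-likelihood fits of all 10 libraries in 3 groups, or 4 for the kinds and 5 for separate TeO libraries, with Benjamini-Hochberg adjustment. Standard errors are the log2 fold change over the square root of the F statistic. Log2 CPM had a prior count of 2. The procedure was run on data simulated from the means and the spread of these libraries, with a single size of change. That setting is simpler than the data, and no result here rests on it. Alternatives were DESeq2 1.42.0 with and without ashr 2.2.63, other scalings, filters and groupings, blocks and left-out libraries. Without gene names, the rule named the 2 identifiers in each direction with the largest difference of mean CPM among genes called, called in each kind and without overlap. The comparison, the rule and the 21 split genes were chosen with earlier results of these data known. The split genes have at most 3 counts in a TeO library and over 5 CPM in another. Marker and pathway lists could not be applied.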

Additional observations from a re-analysis of the deposited data

Results flagged for a closer look

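A test of the difference between the effects of the 2 kinds of iTeO against TeO was passed by 2 genes. These are the ones called between iTeO (ES) and iTeO (iPS) with the quasi-likelihood test of edgeR. The 21 split genes, on in iTeO (ES) and off in iTeO (iPS), were not among them.

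Counts on human genes, which no comparison here uses, were above all TeO and NCC libraries (at most 0.137%) in the first replicates of both kinds, with 0.371% of all counts for iTeO (ES) and 0.299% for iTeO (iPS). Without both of these libraries, the comparison of iTeO with TeO called 1010 chicken genes, and iTeO was the higher tissue in 516 of them and TeO in 494.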

How the results depend on the processing

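Of the 20 other settings planned for iTeO against TeO, 17 left the number of called genes within 1.5 times of 950. It moved to 509 with DESeq2 and ashr (310 higher in iTeO and 199 in TeO), to 577 with at least 10 counts in every library (339 and 238) and to 135 when tested with glmTreat against a log2 fold change of 1 (80 and 55). With library sizes alone the directions moved to 868 and 232. Above a log2 fold change of 2, the number was 254 without a filter, 62 with ashr, 40 with at least 10 counts in every library and 73 with glmTreat. Leaving out genes that depended on iTeO or on TeO to pass the filter was chosen after seeing the data. It gave 77 genes above 2, and 9.27% called below 1 CPM and 9.69% between 1 and 10 CPM. With each library left out, the numbers were between 862 and 971 called, 494 and 561 higher in iTeO, 346 and 457 higher in TeO, and 135 and 190 above 2. For iTeO (ES) against TeO they were between 906 and 1146, and for iTeO (iPS) between 658 and 876. Between the kinds, 2 genes became 36 with DESeq2, 20 when only iTeO was fitted, 1 with a replicate block, and between 0 and 96 with a library left out. Without iTeO (ES) replicate 1 and 2 it was 64 and 96, where a lone library is assumed to vary like the other groups. With the replicate block, iTeO against TeO called 869 genes. Same-numbered iTeO and TeO libraries had deviations correlated by -0.03 to 0.03 across genes, and same-numbered libraries of the 2 kinds by -0.11. The 2 libraries of a kind have mirrored deviations, so that these values cannot decide whether libraries are paired by number. Some shares followed the number in both kinds. The most counted gene held 15.2% of chicken counts in both first iTeO replicates, and 13.4% (ES) and 13.3% (iPS) in the second, and the share on human genes was higher in the first. The share called below 1 CPM moved from 16.6% to 23.1% with the TeO mean as level, and the share called in every fit from 60.4% to 51.0% above a log2 fold change of 2. The causes were not tested. The median standard error of the log2 fold change was 0.49 below 1 CPM and 0.07 at 100 CPM or above.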
